A study of Mus musculus with 45 samples.

Results

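The wave-front of transcription 15 min after DRB removal was compared between WT/slow and WT/WT mouse embryonic stem cells (ESCs), with 3 replicates of each genotype. The wave-front is given as a boundary, the value in the tables for how far newly made RNA reached along a transcript from its start. All transcripts of at least 20 kb with a boundary in each of the 6 samples were taken, and no boundary value was used to choose them. This gave 27064 of the 122968 transcripts in the tables, from 9119 genes. In 4376 of them (2023 genes) all 6 boundaries lay above 2.5 kb, the commonest value, and these transcripts were also examined on their own. Whether a value of 2.5 kb marks a wave-front found there or none is not stated in the labels or methods and was not tested. Its mean share rose from 20.8% at 5 min to 48.4% at 15 min and 65.9% at 30 min in WT/WT. In WT/slow it rose from 23.3% to 43.9% and 70.2%. Each difference below that rests on this value carries the limit that its meaning is unknown.

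The series follows transcript elongation in ESCs that carry a slow form of RNA polymerase II (Pol II), the R749H substitution in its largest subunit, Polr2a. WT/WT cells had 2 wild-type copies, WT/slow cells had 1 wild-type and 1 R749H copy, and slow/slow cells had 2 R749H copies. The cells used here grew in 2i medium, were held in DRB for 4 h, were released for 5, 15 or 30 min, and received 4sU for 10 min, while 18 samples at 0 min or without DRB were not used here. At 15 min the 6 samples differed in genotype alone by their labels, and how many separate cell lines stood behind each genotype was not stated in the labels.

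Soon after it starts, Pol II pauses near the promoter, and its release into the gene body needs the kinase CDK9. DRB inhibits CDK9 and so holds Pol II near the start, and when DRB is washed away Pol II enters genes as a wave. 4sU is taken up into RNA as it is made, so that RNA of the wave can be purified and the front of the wave can be placed along each gene.

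The codon named by R749H lies in exon 14 of the 29 coding exons of the Polr2a transcript ENSMUST00000058470. The reference stretch around it is printed because this position defines the groups compared, and capitals mark the codon: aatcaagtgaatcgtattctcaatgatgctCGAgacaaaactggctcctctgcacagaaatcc (GRCm38, chr11:69743326-69743388, minus strand).

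Labels of cell type and genotype could not be checked from the values, since boundaries are distances and not levels of RNA. Among markers of ESCs, 5 of 10 genes had a transcript with 6 boundaries, against 2 of 6 neural, 4 of 5 primitive endoderm, 3 of 4 trophoblast and 1 of 6 fibroblast genes. A boundary was thus found for genes of other cell types too, and its presence did not tell the cell types apart.

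WT/WT replicate 2 stood apart from the other 5 libraries. In it 56.8% of the boundaries equalled 2.5 kb, against 41.8% to 46.8% in the others, and its upper quartile was 7.8 kb against 14.6 to 23 kb. Most comparisons of medians, shares and lists at 15 min are therefore also given without it, and those for boundary ranges, for shares by length, for medians with 2.5 kb left out, for classes with all 6 boundaries above 2.5 kb and for gene lists were chosen after seeing the data. Counts of transcripts without overlap were made with all 6 samples only. Spearman correlations of boundaries over the 27064 transcripts were 0.362 to 0.508 within WT/WT, 0.439 to 0.558 within WT/slow and 0.274 to 0.498 between genotypes. Replicates of 1 genotype were thus little more alike than samples of different genotype, and no 2 tables were identical (0 pairs).

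Taken over all transcripts, the wave-front of WT/slow cells did not lie apart from that of WT/WT cells. Boundaries at 2.5 kb were the commonest, and the rest were spread from below 2.5 kb to above 50 kb. Median boundaries were 2.9, 2.5 and 3.7 kb in WT/WT replicates 1, 2 and 3, and 2.9, 4.0 and 4.3 kb in WT/slow replicates 1, 2 and 3. WT/slow replicates 2 and 3 were the highest, but WT/slow replicate 1 lay level with WT/WT replicate 1, so the groups overlapped. The group means were 3.03 ± 0.611 kb and 3.73 ± 0.737 kb (mean ± SD), a difference of 0.7 kb (exact permutation test, p = 0.3, n = 3 per group). The smallest p that this test can give with 3 against 3 samples is 0.1, so no difference between sample medians could reach 0.05. By the mean over transcripts the difference was 1.64 kb (exact permutation test, p = 0.3, n = 3), and among transcripts of at least 60 kb it was 4.67 kb (exact permutation test, p = 0.4, n = 3). The difference in medians over all transcripts was 0.433 kb without WT/WT replicate 2 (exact permutation test, p = 0.6), and leaving out WT/slow replicate 3 gave 0.417 kb and WT/slow replicate 1 gave 1.12 kb. The files give no depth or read counts, so the spread of replicates, which are biological replicates by the paper's account, was the only measure of error.

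Treating replicate numbers as a block, the exact permutation test gave p = 0.5 for the medians (n = 3 pairs), and its smallest possible p is 0.25.

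**Figure D1:**
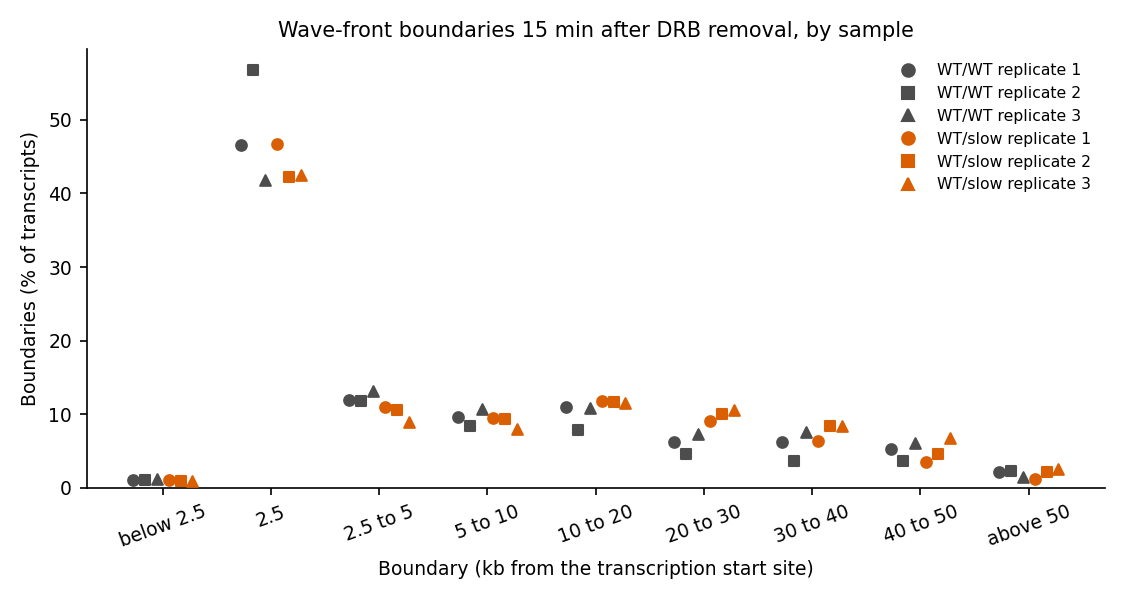
Share of transcripts (%) in each range of boundary (kb) for every sample at 15 min, with WT/WT in grey, WT/slow in orange and a symbol for each replicate. The share at 2.5 kb is the largest in all 6 samples, and between 20 and 30 kb the 3 WT/slow samples lie above the 3 WT/WT samples.

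Boundaries equal to 2.5 kb made up close to 1 in 2 of all values in both genotypes. Their share was 46.6%, 56.8% and 41.8% in WT/WT and 46.8%, 42.3% and 42.6% in WT/slow. Only WT/WT replicate 2 was far from the rest, and the groups overlapped. The means were 48.4 ± 7.65% and 43.9 ± 2.52%, a difference of -4.54 points (exact permutation test, p = 0.7, n = 3 per group, and p = 1 with the replicate block). The difference was -0.352 points without WT/WT replicate 2, and without WT/WT replicate 3 it was -7.84 points. What the value of 2.5 kb stands for was not tested.

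The shares of boundaries in each range were described and not tested, and in some ranges the groups did not overlap. Between 20 and 30 kb lay 6.20%, 4.56% and 7.36% of WT/WT boundaries and 9.11%, 10.1% and 10.5% of WT/slow boundaries. Every WT/slow sample was above every WT/WT sample there, by 3.88 points between the means, or 3.14 points without WT/WT replicate 2. Between 10 and 20 kb the means were 9.92 ± 1.78% and 11.6 ± 0.0928%, again without overlap, but the difference of 1.69 points fell to 0.668 points without WT/WT replicate 2. Short boundaries above 2.5 and up to 5 kb were the converse, 12.2 ± 0.752% in WT/WT and 10.1 ± 1.10% in WT/slow, with no overlap (-2.35 points without WT/WT replicate 2). Below 2.5 kb the groups did not overlap either, with 1.10 ± 0.0657% in WT/WT and 0.925 ± 0.0759% in WT/slow. From 5 to 10 kb and beyond 30 kb the groups overlapped. With boundaries at 2.5 kb left out in each sample, the medians were 13.1, 10.3 and 13.1 kb in WT/WT and 14, 16.7 and 19.6 kb in WT/slow. Each WT/slow sample then lay farther than each WT/WT sample, by 4.6 kb (exact permutation test, p = 0.1, n = 3 per group), which is the smallest p this test allows. That difference was 3.67 kb without WT/WT replicate 2 (exact permutation test, p = 0.2, n = 2 against 3). The replicate block was not applied to this value.

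The same transcripts can carry 2.5 kb in 1 sample and a long boundary in another, so the 4376 transcripts with all 6 boundaries above 2.5 kb were compared on their own. Their medians were 21.4, 20 and 22.15 kb in WT/WT and 21.05, 24.5 and 24.5 kb in WT/slow. WT/slow replicates 2 and 3 lay farthest, while WT/slow replicate 1 fell between the WT/WT replicates, and the groups overlapped. The means were 21.2 ± 1.09 kb and 23.4 ± 1.99 kb, a difference of 2.17 kb (exact permutation test, p = 0.3, n = 3 per group, and p = 0.5 with the replicate block). By the mean over transcripts it was 0.651 kb (exact permutation test, p = 0.5, n = 3). Without WT/WT replicate 2 it was 1.575 kb, and without WT/slow replicate 1 it was 3.32 kb (exact permutation test, p = 0.1). Of these transcripts 2299 had the higher mean in WT/slow and 2065 in WT/WT, so directions were close to even.

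Transcript length limits how far a boundary can lie in short transcripts, so the comparison was made in 5 length classes. The longest boundary of each sample was 58.2 to 59.2 kb, however long the transcript. In the classes from 60 kb up, boundaries thus ended at a common limit and not at the transcript end. What set this limit was not tested, and no boundary beyond it was seen. Short transcripts were ruled by the value of 2.5 kb, and long ones less so. All 6 boundaries equalled 2.5 kb in 28.8% of transcripts of 20 to 30 kb, in 12.6% of 30 to 60 kb, and in 3.07%, 2.89% and 5.07% of the 60 to 100, 100 to 200 and at least 200 kb classes. In the 6700 transcripts of 20 to 30 kb every sample median was 2.5 kb, so the difference was 0 kb. In the 9179 transcripts of 30 to 60 kb the medians were 2.5, 2.5 and 2.7 kb in WT/WT and 2.5, 3.4 and 3.5 kb in WT/slow. These groups overlapped at 2.5 kb, with a difference of 0.567 kb (exact permutation test, p = 0.4, n = 3 per group). That difference was 0.883 kb without WT/slow replicate 1 (exact permutation test, p = 0.1) and 0.383 kb without WT/slow replicate 3. For 60 to 100 kb (4722 transcripts) the medians were 10.3, 3.4 and 13.1 kb in WT/WT and 8, 15.35 and 21 kb in WT/slow. WT/WT replicate 2 was the lowest and WT/slow replicate 1 lay below 2 WT/WT replicates, so this class overlapped too, with a difference of 5.85 kb (exact permutation test, p = 0.4, n = 3). Without WT/WT replicate 2 that difference was 3.08 kb.

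Transcripts above 100 kb gave the same picture. At 100 to 200 kb (3743 transcripts) the medians were 10.9, 4.1 and 13.7 kb in WT/WT and 9, 13.7 and 19.1 kb in WT/slow. The groups overlapped, with a difference of 4.37 kb (exact permutation test, p = 0.5, n = 3 per group), or 1.63 kb without WT/WT replicate 2. At 200 kb or more (2720 transcripts) the medians were 10.2, 4.4 and 8.2 kb in WT/WT and 9.4, 9.6 and 11.7 kb in WT/slow. Here WT/WT replicate 1 lay within the range of WT/slow, and the difference was 2.63 kb (exact permutation test, p = 0.3, n = 3), or 1.03 kb without WT/WT replicate 2. Without WT/WT replicate 1 it was 3.93 kb (exact permutation test, p = 0.1). By the exact permutation test the Benjamini-Hochberg adjusted p was 0.625 in each class from 30 kb up and 1 in the shortest class, so no class passed. With the replicate block the exact permutation test gave p = 0.5 in each class from 30 kb up (n = 3 pairs). The share of boundaries at 2.5 kb differed between the group means by 2.72 points at 20 to 30 kb, -9.24 points at 30 to 60 kb, -5.31 points at 60 to 100 kb and -5.54 points at 100 to 200 kb, with overlap in each. These differences hung on WT/WT replicate 2, without which they were 5.27, -4.58, 0.914 and -0.690 points, so that the direction turned at 60 to 100 kb and the groups no longer overlapped at 20 to 30 kb. At 30 to 60 kb the share was lower in WT/slow in each pair of the same number (exact permutation test with the replicate block, p = 0.25, the smallest possible). In the longest class this share was 30.5%, 38.3% and 32.6% in WT/WT and 29.6%, 30.1% and 30% in WT/slow. All 3 WT/slow samples were lower there, a difference of -3.91 points (exact permutation test, p = 0.1, n = 3) that shrank to -1.65 points without WT/WT replicate 2.

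With all 6 boundaries above 2.5 kb, the classes went both ways. At 20 to 30 kb (306 transcripts) the medians were 7.9, 8.15 and 9.05 kb in WT/WT and 8.2, 8.1 and 10.2 kb in WT/slow, overlapping, with a difference of 0.467 kb. At 30 to 60 kb (989 transcripts) they were 14.4, 14.7 and 14.6 kb in WT/WT and 13.7, 18.9 and 17.3 kb in WT/slow. WT/slow replicates 2 and 3 were high and replicate 1 was the lowest of all 6, with a difference of 2.07 kb (exact permutation test, p = 0.4, n = 3 per group). At 60 to 100 kb (1280 transcripts) they were 26.75, 29.2 and 27.95 kb in WT/WT and 23.8, 29.5 and 28.6 kb in WT/slow, a difference of -0.667 kb with overlap. At 100 to 200 kb (1084 transcripts) they were 29.7, 28.7 and 29.1 kb in WT/WT and 26.8, 29.4 and 28.9 kb in WT/slow, a difference of -0.8 kb with overlap. The longest class stood out from these: in its 717 transcripts the medians were 27.3, 22.6 and 23.4 kb in WT/WT and 28.6, 29.6 and 28.5 kb in WT/slow. There the WT/slow samples all lay farther, with means of 24.4 ± 2.51 kb and 28.9 ± 0.608 kb. The difference was 4.47 kb (exact permutation test, p = 0.1, n = 3, and p = 0.25 with the replicate block), and the Benjamini-Hochberg adjusted p over the classes by the exact permutation test was 0.5. Leaving out WT/WT replicate 2 gave 3.55 kb there, and 0.358, 2.13, -0.05 and -1.03 kb in the classes from the shortest up.

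**Figure D2:**
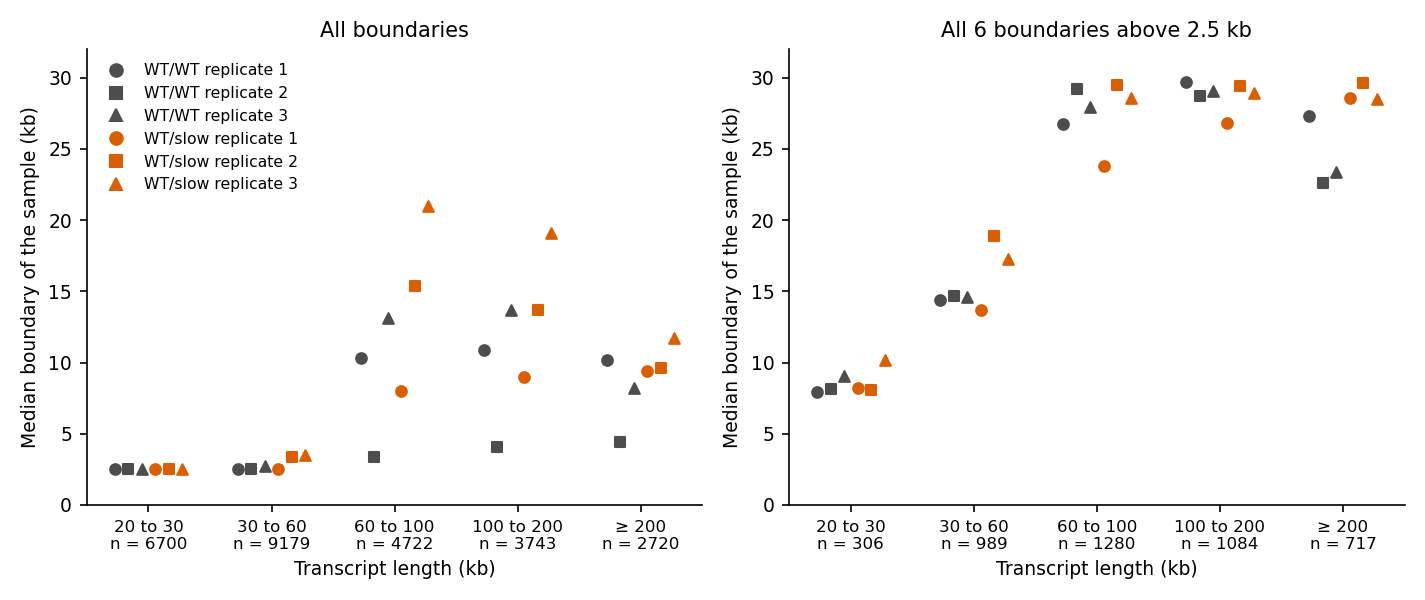
Median boundary (kb) of each sample at 15 min in 5 classes of transcript length (kb), for all boundaries and for transcripts with all 6 above 2.5 kb, with WT/WT in grey, WT/slow in orange and a symbol for each replicate. Groups separate only in the class of at least 200 kb with all 6 boundaries above 2.5 kb.

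Transcript by transcript, some genes stood apart between the genotypes, and with all 6 samples more lay farther than shorter in WT/slow. Without a test, the 3 WT/slow boundaries lay beyond all 3 WT/WT boundaries in 1924 of the 27064 transcripts (7.11%), against 2358 of 43246 transcripts of any length (5.45%). The reverse held in 1255 (4.64%), against 1878 of any length (4.34%). Farther boundaries were thus somewhat more frequent here than in the whole table, and shorter boundaries were about as frequent. The 27064 transcripts are themselves part of the 43246, which draws the shares together. All 3 WT/WT boundaries equalled 2.5 kb and no WT/slow boundary did in 653 transcripts (2.41%), against 2.15% of any length. The reverse was seen in 451 (1.67%), against 2.00% of any length, so both shares were near those of the whole table.

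By limma with the Benjamini-Hochberg adjusted p under 0.05, 346 of the 23584 transcripts tested lay farther in WT/slow (1.47%, against 1.16% of the whole table, 383 of 32916). At the same limma and Benjamini-Hochberg threshold, 135 lay shorter (0.572%, against 0.568%, 187 of 32916). The share called shorter was that of the whole table, and the share called farther was slightly above it. The whole table includes these 23584 transcripts and their 346 and 135 calls, which draws the shares together. The 346 came from 226 genes and the 135 from 100 genes, and 2063 transcripts had an unadjusted p under 0.05. In those called farther the median of the WT/WT means was 2.97 kb and that of the WT/slow means 25.9 kb, and in those called shorter these were 17.2 and 2.87 kb. Calls were therefore mostly moves between a boundary near 2.5 kb and a boundary deep in the gene. At least 1 boundary at 2.5 kb was held by 370 of the 481, and by 22491 of all 27064 transcripts. Transcripts with such a boundary were thus no more frequent among the calls. By length the calls farther and shorter numbered 47 and 45 of 4772 tested at 20 to 30 kb, 170 and 36 of 8020 at 30 to 60 kb, 48 and 15 of 4575 at 60 to 100 kb, 34 and 23 of 3635 at 100 to 200 kb, and 47 and 16 of 2582 beyond. The share called farther was thus highest at 30 to 60 kb (2.12%) and at 200 kb or more (1.82%), and 0.985%, 1.05% and 0.935% in the other classes.

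These 481 calls depended on how the fit was made. An eBayes trend on the mean gave 12 calls (4 farther, 8 shorter), none of them among the 481 (1723 at unadjusted p under 0.05), and limma with the replicate block gave 0 (1926 at unadjusted p under 0.05). A fit of only the longest transcript of each gene gave 177, of which 170 were among the 481. Of the 481, 183 were transcripts of at least 60 kb. Log2 boundaries gave 717, of which 395 were among the 481. Leaving out WT/WT replicate 1 gave 300 (194 farther, 106 shorter), WT/WT replicate 2 gave 440 (228 farther, 212 shorter), WT/WT replicate 3 gave 510 (328 and 182), WT/slow replicate 1 gave 860 (740 and 120), WT/slow replicate 2 gave 598 (497 and 101) and WT/slow replicate 3 gave 586 (487 and 99). Only 176 were called whichever library was left out. The balance of directions thus moved with the library left out, from nearly even without WT/WT replicate 2 to mostly farther without WT/slow replicate 1. At unadjusted p under 0.05 by limma, 1283 lay farther and 780 shorter with all libraries. Without WT/WT replicate 2 that balance turned, to 1176 farther and 1304 shorter.

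In the fit of transcripts with all 6 boundaries above 2.5 kb, limma with the Benjamini-Hochberg adjusted p under 0.05 called 35 farther in WT/slow (0.8% of 4376, against 0.743% of the 4712 of any length). It called 21 shorter (0.480%, against 0.446% of any length), again by limma and Benjamini-Hochberg. All calls of any length were these 35 and 21, and most transcripts tested were members, so the shares could hardly differ. The 35 came from 20 genes and the 21 from 16, and the median difference was 27.4 kb in those farther and 28.2 kb in those shorter. With or without a call, groups did not overlap in 433 (9.89%) with WT/slow farther and in 370 (8.46%) with WT/slow shorter, against 5.45% and 4.34% of transcripts of any length and any boundary. By limma these 56 calls became 0 with the replicate block (525 at unadjusted p under 0.05) and 0 with the eBayes trend (501), against 548 at unadjusted p under 0.05 as fitted. Leaving out WT/WT replicate 1, WT/WT replicate 2, WT/slow replicate 1, WT/slow replicate 2 or WT/slow replicate 3 gave 0 each by limma (506, 507, 515, 552 and 483 at unadjusted p under 0.05). There were 50 (18 farther, 32 shorter) without WT/WT replicate 3, and 1 transcript per gene gave 27. With log2 boundaries there were 81 (54 farther, 27 shorter), of which 45 were among the 56.

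**Figure D3:**
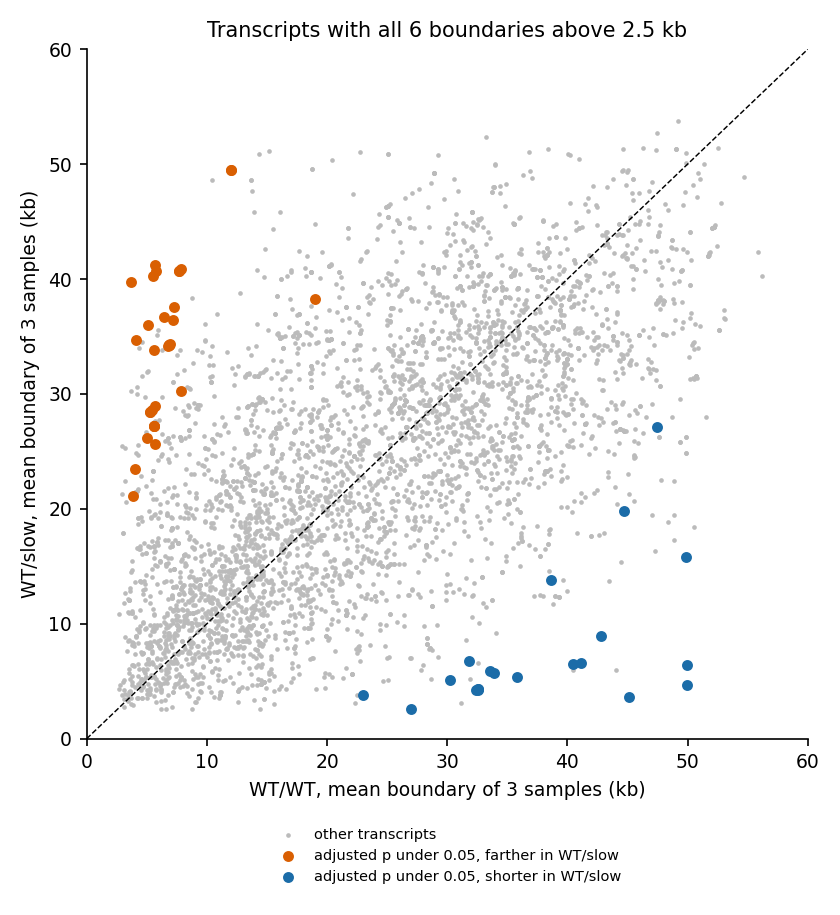
Mean boundary (kb) in WT/WT against WT/slow for the 4376 transcripts with all 6 boundaries above 2.5 kb, with the 35 called farther and the 21 called shorter in WT/slow by limma in colour. Points spread widely on both sides of the line of equal boundaries.

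In the 6 called genes with the largest differences in the farther direction, the boundary lay over 40 kb farther in WT/slow. WT/WT boundaries in them lay between 2.5 and 5.6 kb. Values of each group are listed for replicates 1, 2 and 3. Eps15 encodes an endocytic adaptor protein (chr4:109280303-109385687, 105 kb). Its boundaries were 4.1, 2.5 and 2.5 kb in WT/WT and 52.3, 40.2 and 50.7 kb in WT/slow. All WT/slow samples were high, and the mean boundary fell in intron 1 in WT/WT and in intron 11 in WT/slow, a difference of 44.7 ± 3.55 kb (difference ± SE, limma, Benjamini-Hochberg adjusted p 0.0118). It was called in 2 of 6 transcripts of the gene, and not without WT/WT replicate 1 (limma, Benjamini-Hochberg adjusted p 0.0584) or WT/WT replicate 2 (0.0508). Wdr20 encodes a WD-repeat protein that activates deubiquitinating enzymes (chr12:110737992-110795028). It had boundaries of 2.5, 2.5 and 5.6 kb in WT/WT and 48.5, 45.7 and 47.8 kb in WT/slow. No WT/slow sample came near WT/WT, the difference was 43.8 ± 1.30 kb (limma, Benjamini-Hochberg adjusted p 0.00112), and all 4 of its 4 transcripts were called.

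Epb41l5, a FERM-domain protein of epithelial polarity (chr1:119590742-119649000), had boundaries of 2.5, 2.5 and 4 kb in WT/WT and 51.2, 51.6 and 37 kb in WT/slow. WT/slow replicate 3 was the lowest of its group but far above WT/WT, and the difference was 43.6 ± 4.46 kb (limma, Benjamini-Hochberg adjusted p 0.0232). It was called in 1 of 5 transcripts. This call held without WT/slow replicate 3 only, and by limma the Benjamini-Hochberg adjusted p was 0.0973, 0.0794 and 0.0763 without WT/WT replicates 1, 2 and 3, and 0.0508 and 0.0622 without WT/slow replicates 1 and 2. Far1 encodes the peroxisomal fatty acyl-CoA reductase (chr7:113513861-113571511). Its boundaries were 2.5, 2.5 and 2.7 kb in WT/WT and 41.9, 48.8 and 47.5 kb in WT/slow. The WT/slow samples lay together, 43.5 ± 2.00 kb beyond WT/WT (limma, Benjamini-Hochberg adjusted p 0.00317), but only 1 of 6 transcripts of the gene was called. Fbxo11 encodes an F-box protein that brings substrates to a ubiquitin ligase (chr17:87990859-88065291). Its boundaries were 2.5, 2.6 and 3.9 kb in WT/WT and 34.2, 51.8 and 51.5 kb in WT/slow. WT/slow replicate 1 was lower than the other WT/slow samples, and the difference was 42.8 ± 5.38 kb (limma, Benjamini-Hochberg adjusted p 0.0413). That call held without WT/slow replicate 1 only, and by limma the Benjamini-Hochberg adjusted p was 0.142, 0.124 and 0.115 without WT/WT replicates 1, 2 and 3, and 0.1002 and 0.1017 without WT/slow replicates 2 and 3. Clstn1 encodes calsyntenin, which links cargo to kinesin (chr4:149586638-149647899). All 3 WT/WT boundaries were 2.5 kb, and those of WT/slow were 50.3, 42.7 and 40.1 kb. The difference of 41.9 ± 2.85 kb (limma, Benjamini-Hochberg adjusted p 0.00777) thus rests on the value of 2.5 kb in WT/WT. It was called in 1 of 3 transcripts of the gene.

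Genes with the largest differences the other way encode a cytolinker, transcription regulators, a surface receptor and a phosphatase. In these the WT/slow boundaries lay between 1.9 and 7.3 kb, while the WT/WT front lay deep in the gene. Dst encodes dystonin, which links cytoskeletal filaments (chr1:33908225-34307592, 399 kb). Its boundaries were 41.1, 56.6 and 56.8 kb in WT/WT and 2.5 kb in all 3 WT/slow samples. The difference of -49 ± 4.80 kb (limma, Benjamini-Hochberg adjusted p 0.0208) thus rests on the value of 2.5 kb in WT/slow. Only 1 of 15 transcripts of the gene was called. Its call held without WT/WT replicate 1 only, and by limma the Benjamini-Hochberg adjusted p was 0.0627 and 0.0612 without WT/WT replicates 2 and 3, and 0.0545, 0.0690 and 0.0670 without WT/slow replicates 1, 2 and 3. Bcor encodes a transcriptional corepressor (chrX:12036743-12160355). Its boundaries were 55.8, 35.6 and 53.1 kb in WT/WT and 4.1, 1.9 and 2.5 kb in WT/slow. All WT/WT samples were high, and the difference was -45.3 ± 5.87 kb (limma, Benjamini-Hochberg adjusted p 0.0449). Leaving out WT/WT replicates 1 or 3, or WT/slow replicates 1, 2 or 3, gave 0.116, 0.120, 0.0968, 0.128 and 0.125 by limma (Benjamini-Hochberg), so only its call without WT/WT replicate 2 held, and 1 of 4 transcripts was called.

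Pou2f3 encodes a POU-domain transcription factor known from tuft cells (chr9:43123939-43210369). Its boundaries were 46, 56.3 and 47.6 kb in WT/WT and 2.8, 5.6 and 5.7 kb in WT/slow. None of the 6 equalled 2.5 kb, and WT/slow lay shorter by -45.3 ± 3.10 kb (limma, Benjamini-Hochberg adjusted p 0.00793), whichever library was left out, in 1 of 2 transcripts. Antxr1 encodes an anthrax toxin receptor that binds collagen (chr6:87204446-87270243). Boundaries of 52.9, 54.2 and 42.7 kb in WT/WT stood against 5.3, 7.3 and 6.6 kb in WT/slow. The groups were far apart, by -43.5 kb (limma, Benjamini-Hochberg adjusted p 0.0113, or 0.0538 without WT/WT replicate 1), in 1 of 6 transcripts. Mical3 encodes a flavin monooxygenase of the MICAL family (chr6:121016647-121110094). Its boundaries were 41.6, 54.4 and 39.3 kb in WT/WT and 3.7, 3.6 and 3.5 kb in WT/slow. WT/slow samples were nearly equal and all short, the difference was -41.5 ± 4.34 kb (limma, Benjamini-Hochberg adjusted p 0.0243), and 1 of 10 transcripts was called. Without WT/WT replicate 1 its limma, Benjamini-Hochberg adjusted p was 0.0797, and without WT/slow replicates 1, 2 and 3 it was 0.0619, 0.0788 and 0.0780. Ptpn13 encodes a non-receptor tyrosine phosphatase (chr5:103425192-103541434). WT/WT boundaries were 42.3, 45.5 and 35.3 kb and WT/slow boundaries 3.6, 2.5 and 3.6 kb. The WT/slow boundaries were lower in all samples, by -37.8 ± 2.82 kb (limma, Benjamini-Hochberg adjusted p 0.00987, or 0.0538 without WT/WT replicate 1), in 1 of 4 transcripts.

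**Figure D4:**
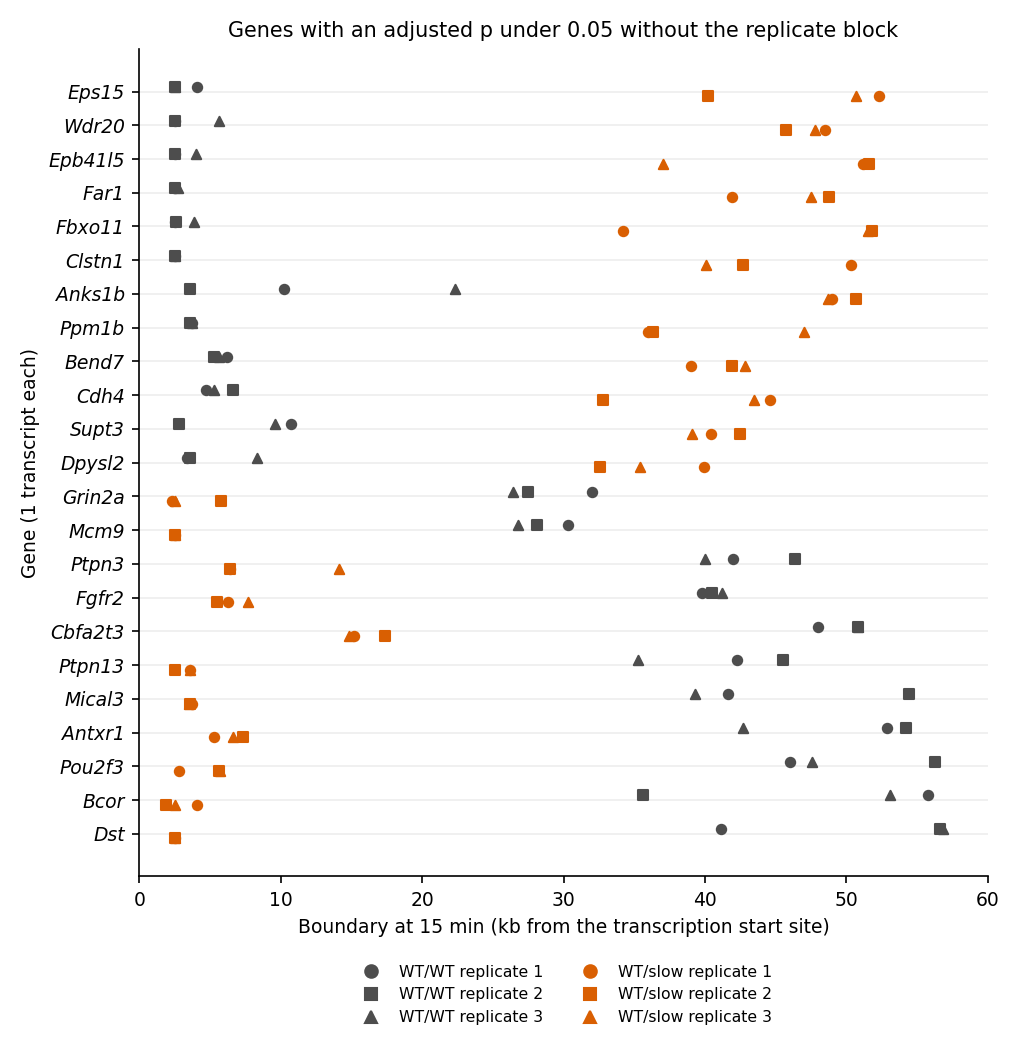
Boundaries (kb) of each sample at 15 min in the 23 named genes called by limma without the replicate block, with WT/WT in grey, WT/slow in orange and a symbol for each replicate. In each gene the genotypes lie apart, with WT/slow farther in the upper genes and shorter in the lower ones.

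Where no boundary equalled 2.5 kb, the genes with the largest differences included a cadherin, a subunit of the SAGA coactivator and a receptor of FGF signalling. In this fit both genotypes had a wave-front placed beyond 2.5 kb in every sample. Anks1b, an ankyrin-repeat protein of the postsynaptic density (810 kb), had boundaries of 10.2, 3.6 and 22.3 kb in WT/WT and 49, 50.7 and 48.7 kb in WT/slow. WT/slow samples lay within 2 kb of each other and beyond all WT/WT samples, by 37.4 ± 5.20 kb (limma, Benjamini-Hochberg adjusted p 0.0445). In the fit of all boundaries its limma, Benjamini-Hochberg adjusted p was 0.0515 and so did not pass. Ppm1b, a phosphatase of the PP2C family, had boundaries of 3.7, 3.6 and 3.7 kb in WT/WT and 36, 36.3 and 47 kb in WT/slow. The groups lay far apart, by 36.1 kb (limma, Benjamini-Hochberg adjusted p 0.0223). Bend7, a BEN-domain protein (chr2:4718145-4800925), had boundaries of 6.2, 5.3 and 5.6 kb in WT/WT and 39, 41.9 and 42.8 kb in WT/slow. Replicates were close within each genotype and the difference was 35.5 ± 2.46 kb (limma, Benjamini-Hochberg adjusted p 0.0209). Cdh4, a cadherin of cell adhesion (405 kb), had boundaries of 4.7, 6.6 and 5.3 kb in WT/WT and 44.6, 32.8 and 43.5 kb in WT/slow. WT/slow replicate 2 was the lowest of its group and still far beyond WT/WT, with a difference of 34.8 ± 3.94 kb (limma, Benjamini-Hochberg adjusted p 0.0237). Supt3, a SAGA subunit (342 kb), had boundaries of 10.7, 2.8 and 9.6 kb in WT/WT and 40.4, 42.5 and 39.1 kb in WT/slow. All WT/slow samples were high, with a difference of 33.0 kb (limma, Benjamini-Hochberg adjusted p 0.0218). Dpysl2, a tubulin-binding protein of axon growth, had boundaries of 3.4, 3.6 and 8.3 kb in WT/WT and 39.9, 32.6 and 35.4 kb in WT/slow. No sample overlapped, and the difference was 30.9 kb (limma, Benjamini-Hochberg adjusted p 0.0223).

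Shorter fronts in WT/slow among such transcripts were seen in Pou2f3, Antxr1 and Mical3, described above, and in 3 further genes. Cbfa2t3, a transcriptional corepressor, had boundaries of 48, 50.8 and 50.8 kb in WT/WT and 15.2, 17.4 and 14.8 kb in WT/slow. Both groups were tight, and WT/slow lay shorter by -34.1 ± 2.48 kb (limma, Benjamini-Hochberg adjusted p 0.0209). Fgfr2, an FGF receptor (chr7:130163709-130266191), had boundaries of 39.8, 40.5 and 41.2 kb in WT/WT and 6.3, 5.5 and 7.7 kb in WT/slow. All WT/slow samples were short, by -34 ± 2.34 kb (limma, Benjamini-Hochberg adjusted p 0.0209), but only 2 of 18 transcripts of the gene were called in the fit of all boundaries. The longest transcript of Fgfr2, used for the pluripotency list, had 3.6, 50.8 and 42 kb in WT/WT and 22.7, 52.2 and 43.4 kb in WT/slow, which overlapped with a difference of 7.3 kb in the other direction. Ptpn3, a tyrosine phosphatase, had boundaries of 42, 46.4 and 40 kb in WT/WT and 6.4, 6.4 and 14.1 kb in WT/slow. WT/slow replicate 3 was the highest of its group and did not reach WT/WT, with a difference of -33.8 ± 3.52 kb (limma, Benjamini-Hochberg adjusted p 0.0223).

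The calls of these 9 genes in the fit above 2.5 kb depended on the libraries used and on the scale. With log2 boundaries the limma, Benjamini-Hochberg adjusted p was 0.240 for Anks1b, 0.126 for Supt3 and 0.0563 for Ptpn3, so these lost the call, and the other 6 kept it. Each of the 9 calls was lost without WT/WT replicate 1, WT/WT replicate 2, WT/slow replicate 1, WT/slow replicate 2 or WT/slow replicate 3, where no transcript was called, and the limma, Benjamini-Hochberg adjusted p for Fgfr2 was then 0.0948, 0.0611, 0.0801, 0.0797 and 0.0770. Without WT/WT replicate 3, Cdh4 (0.0623), Ppm1b (0.0555) and Ptpn3 (0.05003) also lost theirs by limma and Benjamini-Hochberg. In the fit of all boundaries 8 of the 9 passed with all libraries, with a limma, Benjamini-Hochberg adjusted p of 0.000725 for Fgfr2, 0.00141 for Bend7, 0.00170 for Cbfa2t3, 0.0102 for Supt3, 0.0121 for Dpysl2, 0.0152 for Ptpn3, 0.0182 for Ppm1b and 0.0228 for Cdh4. That fit called 1 of 5 transcripts of Cbfa2t3, 1 of 4 each of Ppm1b, Bend7 and Ptpn3, 2 of 3 of Cdh4, 3 of 4 of Supt3, the only 1 of Dpysl2 and 0 of 22 of Anks1b. Other Cbfa2t3 transcripts differed by -6.7 kb (ENSMUST00000006525), 2.57 kb (ENSMUST00000064674) and -11.6 kb (ENSMUST00000134045), none of them called. Of the 23 named genes with a call, 7 kept it without WT/WT replicate 1, 10 without WT/WT replicate 2, 16 without WT/WT replicate 3, and 10, 9 and 10 without WT/slow replicates 1, 2 and 3. Wdr20, Far1, Clstn1, Pou2f3, Grin2a and Mcm9 kept it each time. With the replicate block, the limma, Benjamini-Hochberg adjusted p was 0.130 for Wdr20, 0.150 for Far1, 0.164 for Pou2f3, 0.208 for Dst, 0.228 for Mical3, 0.252 for Epb41l5, 0.266 for Bcor, 0.269 for Fbxo11, and 0.185 each for Eps15, Clstn1, Antxr1 and Ptpn13. In the fit above 2.5 kb it was 0.238 for Anks1b and 0.217 for the others by limma with the block (Benjamini-Hochberg), so none of the 23 passed. With the eBayes trend none of them passed either.

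Ern1, Notch1, Itpr1 and Utrn, which the study names, were not called. In Notch1 and Itpr1 the direction of the difference hung on WT/WT replicate 2, and in Ern1 on other single libraries. Ern1, a sensor of endoplasmic reticulum stress (chr11:106394650-106487796), had boundaries of 59.1, 2.5 and 34.6 kb in WT/WT and 31.2, 28.4 and 34.4 kb in WT/slow. WT/slow samples lay together inside the wide range of WT/WT, with a difference of -0.733 kb (limma, Benjamini-Hochberg adjusted p 0.985). Leaving out WT/WT replicate 2 gave -15.5 kb, WT/WT replicate 1 gave 12.8 kb, WT/WT replicate 3 gave 0.533 kb and WT/slow replicate 2 gave 0.733 kb, so its direction was not settled. Notch1, a receptor of cell-to-cell signalling (chr2:26457903-26503822), had boundaries of 35.5, 2.5 and 32.7 kb in WT/WT and 30.3, 30.2 and 30.1 kb in WT/slow. The WT/slow fronts fell within 0.2 kb of each other in intron 17, between low and high WT/WT values, with a difference of 6.63 kb (limma, Benjamini-Hochberg adjusted p 0.812). That difference turned to -3.9 kb without WT/WT replicate 2. Itpr1, a calcium channel of the endoplasmic reticulum (chr6:108213096-108551109), had boundaries of 49.2, 2.5 and 36.9 kb in WT/WT and 48.5, 37.2 and 35.5 kb in WT/slow. Apart from WT/WT replicate 2 the samples mixed, with a difference of 10.9 kb (limma, Benjamini-Hochberg adjusted p 0.788), or -2.65 kb without WT/WT replicate 2. Utrn, the dystrophin relative utrophin (chr10:12382188-12861735, 480 kb), had boundaries of 2.5, 2.5 and 6.3 kb in WT/WT and 3.3, 22.5 and 29.2 kb in WT/slow. WT/slow replicates 2 and 3 were high and replicate 1 lay within WT/WT, with a difference of 14.6 kb (limma, Benjamini-Hochberg adjusted p 0.699). It was 22.1 kb without WT/slow replicate 1 (limma, Benjamini-Hochberg adjusted p 0.0545) and 9.13 kb without WT/slow replicate 3. Polr2a itself was outside the comparison, since its 24.6 kb transcript had boundaries of 13 and 2.5 kb in WT/WT replicates 1 and 2, none in WT/WT replicate 3, and 2.5, 2.8 and 10.1 kb in WT/slow.

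By gene function, 6 lists were compared through the longest transcript of each gene, and 2 list genes carried a call. Over all 9119 genes taken in the same way, 118 (1.29%) were called farther and 52 (0.570%) shorter, and groups did not overlap in 657 (7.20%) and 419 (4.59%). Of these genes 4503 had the higher mean in WT/slow and 3386 the lower, with a median difference of 0 kb. Medians of the per-gene differences follow, and the values without WT/WT replicate 2 were chosen after seeing the data. No list median was tested. In the elongation and termination list (33 genes), 20 had the higher mean in WT/slow and 5 in WT/WT, and the median difference was 2.6 kb, or 0.5 kb without WT/WT replicate 2. Chromatin regulators (43 genes) were even, 22 higher and 20 lower, with a median difference of 0.667 kb that turned to -1.55 kb without WT/WT replicate 2. In the pluripotency and LIF list only 16 of the 35 listed genes entered the comparison, and Pou5f1, Nanog, Sox2 and Klf4 did not. Of these 16 genes 12 were higher and 4 lower. Their list medians were 3.8, 2.5 and 14.15 kb in WT/WT and 22.7, 19.15 and 22.75 kb in WT/slow. All 3 WT/slow medians lay beyond those of WT/WT there, and the median difference was 9.3 kb, or 3.8 kb without WT/WT replicate 2. Long synaptic and axon guidance genes (31 genes) had list medians of 5.4, 8.1 and 7.2 kb in WT/WT and 14.3, 9.5 and 14.7 kb in WT/slow. These too did not overlap, although 17 genes were higher and 13 lower, and the median difference was 2.83 kb, or 1.07 kb without WT/WT replicate 2. Splicing factors (35 genes) had medians of 2.5 kb in all 6 samples. DNA repair and replication genes (35 genes) had 23 higher and 8 lower, and the median difference was 3.87 kb, or 1.55 kb without WT/WT replicate 2.

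**Figure D5:**
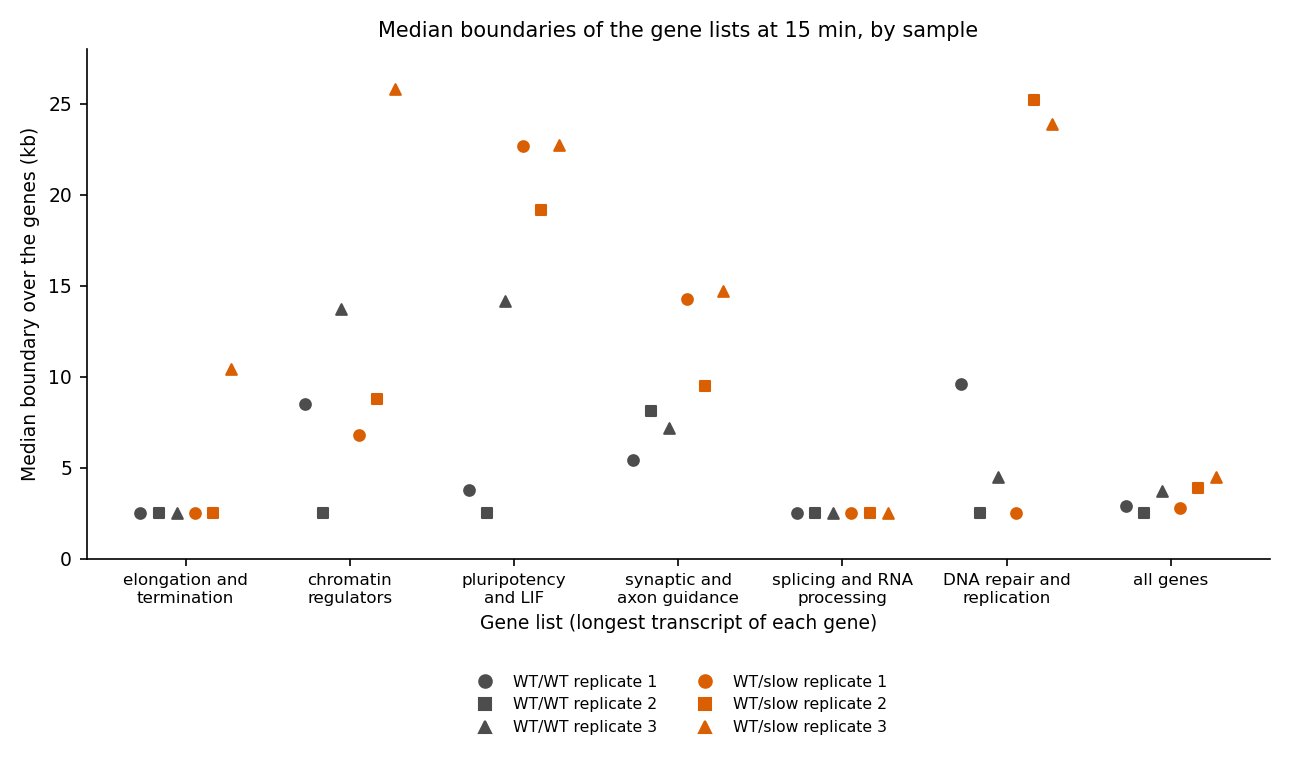
Median boundary (kb) over the genes of each list and over all genes at 15 min, by the longest transcript of each gene, with WT/WT in grey, WT/slow in orange and a symbol for each replicate. WT/slow medians lie beyond those of WT/WT in the pluripotency and LIF list and in the synaptic and axon guidance list, and in the other lists the groups overlap. The list medians were not tested.

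Within the lists, the genes with the largest difference in each direction showed mostly mixed replicates. Mcm9, a helicase of homologous recombination (chr10:53536329-53630439), had boundaries of 30.3, 28.1 and 26.8 kb in WT/WT and 2.5 kb in all 3 WT/slow samples. The difference of -25.9 ± 1.04 kb thus rests on the value of 2.5 kb in every WT/slow sample (limma, Benjamini-Hochberg adjusted p 0.00229, or 0.141 with the replicate block). Grin2a, a subunit of the NMDA receptor (chr16:9567898-9994923), had boundaries of 32, 27.5 and 26.4 kb in WT/WT and 2.3, 5.8 and 2.5 kb in WT/slow. All WT/slow samples were short, by -25.1 ± 1.94 kb (limma, Benjamini-Hochberg adjusted p 0.0108, or 0.197 with the replicate block), in 2 of 3 transcripts of the gene. Asxl1, a subunit of a Polycomb deubiquitinase (chr2:153345845-153404007), had boundaries of 6.1, 2.5 and 8 kb in WT/WT and 32.6, 40.1 and 49.6 kb in WT/slow. The groups did not overlap, and the difference of 35.2 ± 4.78 kb lay just outside the threshold (limma, Benjamini-Hochberg adjusted p 0.0515). It lay under 0.05 by limma and Benjamini-Hochberg when only transcripts of at least 20 kb were fitted (0.0483) and without WT/slow replicate 1 (0.0295) or WT/slow replicate 3 (0.0455). Arid2, a subunit of the PBAF remodeller, had 51.8, 54.9 and 45.3 kb in WT/WT and 2.5, 2.5 and 47 kb in WT/slow. WT/slow replicate 3 lay with WT/WT, so the groups overlapped (-33.3 kb, limma, Benjamini-Hochberg adjusted p 0.693, or 0.0170 without that library).

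The remaining list extremes did not pass. Stat3, the transcription factor of LIF signalling, had boundaries of 2.5, 2.5 and 36.2 kb in WT/WT and 35.4, 40.6 and 46 kb in WT/slow. WT/WT replicate 3 lay among the WT/slow samples (26.9 kb, limma, Benjamini-Hochberg adjusted p 0.657, or 0.0413 without it). Tcf7l1, a repressor in the pluripotency network, had 35.2, 3.5 and 34.8 kb in WT/WT and 24, 4.1 and 24.1 kb in WT/slow, with replicate 2 of both genotypes short (-7.1 kb, limma, Benjamini-Hochberg adjusted p 0.827). That difference ran from -17.6 kb without WT/WT replicate 2 to -0.45 kb without WT/slow replicate 2. Top1, a DNA topoisomerase, had 2.5, 2.5 and 6.5 kb in WT/WT and 2.5, 35.3 and 51.8 kb in WT/slow, where replicate 1 did not differ from WT/WT (26.03 kb, limma, Benjamini-Hochberg adjusted p 0.704). Aff1, a scaffold of the super elongation complex, had 25.4, 25.1 and 40.1 kb in WT/WT and 25.5, 25.1 and 2.5 kb in WT/slow, with 4 of 6 samples within 0.4 kb (-12.5 kb, limma, Benjamini-Hochberg adjusted p 0.781). Grin2b, another NMDA receptor subunit, had 2.5, 2.2 and 3.3 kb in WT/WT and 36.6, 2.5 and 36 kb in WT/slow. WT/slow replicate 2 lay with WT/WT (22.4 kb, limma, Benjamini-Hochberg adjusted p 0.696, or 0.00376 without it). Ptbp2, a splicing regulator, had 2.5, 3.8 and 29.7 kb in WT/WT and 2.5 kb in all WT/slow samples, with only WT/WT replicate 3 high (-9.5 kb, limma, Benjamini-Hochberg adjusted p 0.781). Rad50, of double-strand break repair, had 45.6, 2.5 and 2.5 kb in WT/WT and 33, 54.1 and 45.2 kb in WT/slow, with WT/WT replicate 1 among WT/slow (27.2 kb, limma, Benjamini-Hochberg adjusted p 0.708).

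Some other list genes without overlap were chosen after their values were seen, and none of them passed limma. In the pluripotency list, Tfcp2l1, a transcription factor of naive ESCs, had 2.5 kb in all WT/WT samples and 30.9, 9.3 and 42.1 kb in WT/slow. Esrrb, an orphan nuclear receptor of the same network, went the other way, with 4, 17.5 and 7.9 kb in WT/WT and 2.5, 2.6 and 3.4 kb in WT/slow. Among chromatin regulators, the methyltransferase gene Kmt2d had 5.1, 16.7 and 3.7 kb in WT/WT and 26.7, 19.7 and 18.1 kb in WT/slow. The methyltransferase gene Ehmt1 had 37.5, 36.3 and 39.5 kb in WT/WT and 12.5, 28.3 and 36.2 kb in WT/slow, all lower. Cntn4, an axonal adhesion molecule, had 5.4, 3.6 and 0.4 kb in WT/WT and 33.4, 22.5 and 15 kb in WT/slow. Elongation factor Iws1 had 7.3, 2.5 and 2.5 kb in WT/WT and 9.2 kb in each WT/slow sample, and Pcf11, which acts in 3' end cleavage and termination, had 2.5 kb in all WT/WT samples and 14.1, 2.6 and 14.4 kb in WT/slow. In both the WT/slow boundaries were higher, by 5.1 kb and 7.87 kb. Among splicing factors, U2surp had 2.5, 2.5 and 3 kb in WT/WT and 21.2, 3.3 and 25.1 kb in WT/slow, and the RNA-binding protein gene Hnrnpr had 2.8, 2.7 and 2.9 kb in WT/WT and 4.7 kb in each WT/slow sample. Prpf8, of the core of the spliceosome, had 3 kb in each WT/WT sample and 2.5 kb in each WT/slow sample, a difference of a few bins only. Trp53bp1, of double-strand break repair, had 2.5, 2.5 and 4.4 kb in WT/WT and 9.7, 34.4 and 9.4 kb in WT/slow, all farther.

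At 5 and 30 min the groups of the 2 genotypes overlapped too. At 5 min the medians of the same transcripts were 7.4, 14.9 and 9 kb in WT/WT and 7.5, 12 and 8.9 kb in WT/slow. The groups overlapped, with a difference of -0.967 kb (exact permutation test, p = 0.8, n = 3 per group). Over all transcripts medians were higher at 5 min than at 15 min in both genotypes, and 18.3% to 26.2% of boundaries at 5 min equalled 2.5 kb. The order was the reverse in the transcripts with all 6 boundaries at 15 min above 2.5 kb, which that choice favours. Their medians at 5 min were 9.3, 15.1 and 9.5 kb in WT/WT and 8.9, 11.5 and 8.2 kb in WT/slow, against 20 to 24.5 kb at 15 min. Each WT/slow sample lay below the WT/WT sample of the same number there, by -1.77 kb between the means (exact permutation test, p = 0.5, n = 3 per group, and 0.25, the smallest possible, with the replicate block). The share at 2.5 kb at 5 min was 24.1%, 18.3% and 20.02% in WT/WT and 26.2%, 19.8% and 24.0% in WT/slow, and at 30 min 55.5%, 69.0% and 73.2% in WT/WT and 63.3%, 73.2% and 74.0% in WT/slow. It was higher in WT/slow in each pair of the same number at both times, although the groups overlapped (exact permutation test, p = 0.5 and p = 0.6, n = 3 per group, and 0.25 each with the replicate block). Over all transcripts every median at 30 min was 2.5 kb in both genotypes, so the medians could not be compared there. Slow/slow samples at 15 min, whose comparison would share the WT/WT samples, had medians of 5.3, 7.7 and 9.5 kb, and 39.1%, 37.3% and 32.8% of their boundaries equalled 2.5 kb. In the transcripts with all 6 WT/WT and WT/slow boundaries above 2.5 kb the slow/slow medians were 22.4, 22.8 and 19.7 kb.

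A limma interaction tested whether the difference at 15 min differed from that at 5 min. With the Benjamini-Hochberg adjusted p under 0.05, limma called 97 transcripts in the farther direction (0.336% of the 28830 tested at any length) and 19 in the shorter direction (20 or 0.0694% at any length). Among the 24280 tested here 1448 had an unadjusted p under 0.05. The genes below were chosen for large differences at 15 min, which are part of the interaction, so their values describe them and are no separate support. Mical3 had boundaries at 5 min of 8.7, 16.9 and 5.7 kb in WT/WT and 10, 16 and 2.5 kb in WT/slow. These mixed, unlike those at 15 min, and the interaction was -40.6 kb (limma, Benjamini-Hochberg adjusted p 0.0448, or 0.0350 with the replicate block). Its limma, Benjamini-Hochberg adjusted p for the interaction stayed under 0.05 only without WT/WT 5 min replicate 2 or WT/WT 15 min replicate 3. It was 0.0896 and 0.0853 without WT/WT 5 min replicates 1 and 3, 0.0903, 0.0855 and 0.0529 without WT/slow 5 min replicates 1, 2 and 3, 0.0770 and 0.0547 without WT/WT 15 min replicates 1 and 2, and 0.0553, 0.0840 and 0.0771 without WT/slow 15 min replicates 1, 2 and 3 (limma, Benjamini-Hochberg). Bend7 had 11.9, 6.6 and 11.1 kb in WT/WT and 15.2, 10.5 and 3.1 kb in WT/slow at 5 min. These overlapped too, and the interaction was 35.8 kb (limma, Benjamini-Hochberg adjusted p 0.0136, or 0.0493 with the replicate block). Mcm9 had 13.1, 6.5 and 7.7 kb in WT/WT and 2.5 kb in all WT/slow samples at 5 min. WT/slow had 2.5 kb at both times, so that only WT/WT values changed between them (-19.3 kb, limma, Benjamini-Hochberg adjusted p 0.0176, or 0.0491 with the replicate block). The interactions of Bend7 and Mcm9 passed whichever library was left out, but not with log2 boundaries, where the limma, Benjamini-Hochberg adjusted p was 0.184 for Bend7, 0.235 for Mcm9 and 0.336 for Mical3. In all, log2 boundaries gave 93 calls by limma, of which 49 were among the 116. Slow/slow boundaries at 15 min, which share the WT/WT samples, were 31, 28.6 and 29.3 kb in Bend7, 32.6, 30.3 and 2.5 kb in Mcm9 and 24.6, 31.2 and 24 kb in Fgfr2. With the replicate block limma gave 34 calls (28 farther, 6 shorter), all among the 116. Leaving out a library gave 66 without WT/WT 15 min replicate 1, 67 without WT/slow 5 min replicate 3 and 255 without WT/slow 15 min replicate 1, and 40 were called each time. Without WT/WT 15 min replicate 2 there were 90 (50 farther, 40 shorter).

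A clear shift of the wave-front over all transcripts was not found at 15 min. WT/slow samples held more boundaries between 20 and 30 kb than WT/WT samples, a difference that was described and not tested. Single genes differed by over 40 kb in both directions, but their calls rested on small groups and were lost with the replicate block or the eBayes trend.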

How the data were processed

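The authors aligned reads to mm10 with Bowtie2 2.2.9 and deposited boundaries as distances in bases, used here in kb. Boundaries were whole multiples of 100 bases. Transcripts were named from GENCODE M21 on GRCm38, where 26957 of the 27064 were found. The rule for members used only length and the presence of a boundary, but this rule and the lists were chosen with earlier results of these data known. Sample medians were compared by an exact two-sided permutation test (pandas 2.3.3, SciPy 1.17.1 and NumPy 2.4.6 under Python 3.11.15). Single transcripts were fitted with limma 3.58.1 (R 4.3.3) on boundaries in kb over all lengths, leaving out those equal in all samples, with Benjamini-Hochberg adjustment over the whole table. Figures were drawn with Matplotlib 3.10.9.

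Named genes were those named by the study, the 6 largest called differences without overlap per direction in each fit, and the extremes of each list, apart from genes not used here. As a check of pairing, deviations from the group mean were correlated between same-numbered replicates (Pearson 0.0989, 0.152 and 0.202 over all members and 0.164, 0.179 and 0.1004 with all 6 above 2.5 kb, against a limit of 0.1). Each sample went best with its own number, so results with the replicate block are also given for the main comparisons and called genes, although no label says that numbers mark shared handling.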

Additional observations from a re-analysis of the deposited data

Results flagged for a closer look

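In 10 named genes the difference between WT/slow and WT/WT at 15 min differed from that at 5 min (limma interaction, Benjamini-Hochberg adjusted p under 0.05). These genes were chosen for large differences at 15 min, which are part of the interaction, so the values describe them and are no separate support. Over all transcripts tested here 116 of 24280 were called by limma in this way. For Wdr20 the interaction was 36.4 kb (limma, Benjamini-Hochberg adjusted p 0.0344). For Epb41l5 it was 40.1 kb (0.0321 by limma, Benjamini-Hochberg), for Far1 40.7 kb (0.0232) and for Dst -44.2 kb (0.0174). Mical3 had -40.6 kb (0.0448 by limma, Benjamini-Hochberg), Bend7 35.8 kb (0.0136), Cdh4 30.1 kb (0.0207) and Supt3 33.2 kb (0.0258). Asxl1 had 36.8 kb (0.0321 by limma, Benjamini-Hochberg) and Mcm9 -19.3 kb (0.0176). A positive value means that the WT/slow front lay relatively farther at 15 min than at 5 min. With the replicate block only Mical3 (0.0350 by limma, Benjamini-Hochberg), Bend7 (0.0493) and Mcm9 (0.0491) stayed under 0.05. Dst, Bend7 and Mcm9 passed whichever library was left out, and the other 7 did not pass without at least 1 of the libraries. With log2 boundaries only Epb41l5 stayed under 0.05 (0.0270 by limma, Benjamini-Hochberg), and Dst (0.0610), Bend7 (0.184) and Mcm9 (0.235) did not. The cause was not tested.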

How the results depend on the processing

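The median difference over all transcripts was 0.7 kb, and its direction held by the mean over transcripts, at 60 kb or more, with boundaries at 2.5 kb left out and without each library in turn. By length class with all 6 boundaries above 2.5 kb it was 0.467 kb at 20 to 30 kb, -0.667 kb at 60 to 100 kb and -0.8 kb at 100 to 200 kb, and without WT/WT replicate 2 as well these were 0.358, -0.05 and -1.03 kb. The difference in the share at 2.5 kb turned from -5.31 to 0.914 points at 60 to 100 kb without that library.

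The 481 limma calls became 177 with 1 transcript per gene, 183 at 60 kb or more, 12 with the eBayes trend and 0 with the replicate block, and 300 to 860 with 1 library left out. The 56 limma calls with all 6 boundaries above 2.5 kb became 81 with log2 boundaries (45 shared), 27 with 1 transcript per gene, 0 with the eBayes trend and 0 with the replicate block, and 0 to 50 with 1 library left out. The 116 limma calls of the interaction with time became 93 with log2 boundaries (49 shared), 34 with the replicate block and 66 to 255 with 1 library left out.

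Ern1 turned from -0.733 kb to a log2 difference of 0.86, and ran from -15.5 to 12.8 kb with 1 library left out. Notch1 ran from -3.9 to 12.6 kb and Itpr1 from -2.65 to 20.7 kb. Alternatives without WT/WT replicate 2 for gene lists, boundary ranges, shares by length, medians with 2.5 kb left out and classes with all 6 boundaries above 2.5 kb were chosen after seeing the data. The cause of these differences was not tested.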
